A study of Homo sapiens with 6 samples.

Results

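Autophagy genes were followed in HCT116 cells exposed to oxaliplatin. The set held 39 genes chosen by symbol, with earlier results of these data known. It covered the ULK kinase complex, the class III PI3-kinase complexes, the factors that handle ATG9 vesicles and membrane supply, and the ubiquitin-like conjugation enzymes. It also held the ATG4 proteases, the LC3 and GABARAP proteins, the receptor SQSTM1, and the DRAM and TP53INP genes. All 39 were found among the 27942 genes of the count table, and 38 of them were among the 13727 genes with enough counts to be tested. HCT116 is an established human colorectal carcinoma line, so the data describe 1 line. The 6 RNA-seq libraries were 3 of untreated cells (NT) and 3 of cells given 0.5 µM oxaliplatin, a platinum drug that forms DNA adducts, for 24 h (OXA). Both groups were grown in RPMI with serum. The labels list Pen/Strep in the medium while the study's methods state that antibiotics were left out, and which holds for these libraries could not be settled. The replicates were each made from the same number of cells. Nothing in the labels says whether the libraries came from separate cultures, so the p-values measure the spread between these libraries, which may be technical.

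Autophagy encloses cytoplasm in a double membrane, the autophagosome, which then fuses with the lysosome. The ULK1 complex starts the process, the PI3-kinase complex built on VPS34 and Beclin 1 marks the forming membrane with PI3P, and a pair of ubiquitin-like conjugation systems attach LC3 and GABARAP proteins to the lipid of that membrane. Much of its regulation lies in phosphorylation and protein turnover, which mRNA levels do not measure, and several genes of the system, DRAM1 and TP53INP1 among them, are known targets of the p53 transcription factor.

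Library totals lay between 32979521 and 40967880 counts. All 6 epithelial markers were detected, and the 10 markers of blood, endothelial and stromal cells summed to between 144 and 323 normalized counts per library against 77622 to 149254 for the epithelial markers. Of those 10, the stromal marker COL1A1 held most of the sum, at 109 to 284 normalized counts, and DCN stood at 0 in every library. CDKN1A, the p53-induced cell-cycle inhibitor used here as the check of the response, rose in OXA (log2 fold change 2.93, SE 0.15, adjusted p = 0.000445 by edgeR). Library NT 1 stood apart. The chi-square of its counts against those of NT 2 and NT 3 was 83.1 and 75.7 per gene, against 19.2 to 29.6 for the other pairs of libraries within a group.

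The distance of NT 1 from the other untreated libraries followed base composition among the autophagy genes. Over the 38 tested genes, the log2 ratio of NT 1 to the mean of NT 2 and NT 3 was lower at a higher GC content of the transcript (Pearson r = -0.888, Spearman rho = -0.863, across genes of the same libraries, which are not independent replicates). Over 13675 tested genes with a known GC content, Pearson r was -0.676. The GC-rich ATG4D (64.8% GC) stood at -1.43, ULK1 (64.2%) at -1.25 and SQSTM1 (57.1%) at -0.84, while the AT-rich ATG12 (36.1%) stood at 0.32. TP53INP1 and DRAM1 lay near no difference, at 0.027 and 0.083. The same relation ran in the opposite direction in NT 2 (r = 0.856), as it must in part because each library was set against the others of its group, and treated libraries also differed, from -0.794 in OXA 1 to 0.791 in OXA 2. Its part in the results was not tested, and the counts of called genes are therefore also given without NT 1 and with the GC and length trends removed.

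**Figure D1:**
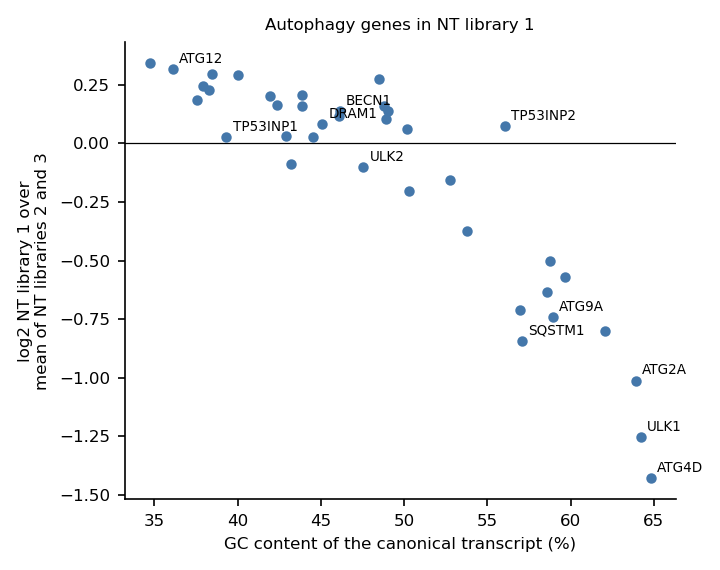
Log2 ratio of normalized counts in library NT 1 to the mean of NT 2 and NT 3 (vertical axis) against transcript GC content in percent (horizontal axis), with 1 point per tested autophagy gene. Points run from 0.34 for ATG4C, at 34.7% GC, to -1.43 for ATG4D, at 64.8% GC.

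Oxaliplatin moved few of the autophagy genes past the test. At an adjusted p under 0.05 (edgeR quasi-likelihood test, Benjamini-Hochberg over every gene tested), 4 of 38 were higher in OXA, namely TP53INP1, DRAM1, ATG12 and BECN1, none was lower, and 34 did not pass. Among all genes tested, 5.07% were called, 2.78% higher and 2.29% lower. Without DRAM1 and TP53INP1, 2 of the remaining 36 autophagy genes were called higher and 0 lower. At an unadjusted p under 0.05, 7 autophagy genes were higher and 4 lower, beside 21.7% of all genes in either direction, and DESeq2 called 5 higher and 1 lower, beside 9.26%. The median log2 fold change of the 38 genes was 0.14, against 0.023 over all genes, with 28 positive and 10 negative values. With the GC and length trends removed it was 0.074, against -0.0068 over all genes. A single gene, TP53INP1, more than doubled, and 33 of the 38 lay within 0.5 of 0 on the log2 scale. Fewer cells and less RNA per cell cannot be told apart in bulk libraries scaled to their totals, so each value is relative to the other genes of the library.

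NT and OXA libraries of the same number tended to depart from their group means together, and the fit was therefore repeated with a term for the number, called the replicate block here. With the replicate block, 9 autophagy genes were higher and 4 lower, beside 23.0% of all genes in either direction (12.1% higher and 10.9% lower). The 5 added on the higher side were ATG4A, GABARAPL2, SQSTM1, RB1CC1 and ATG16L1, and the 4 on the lower side were ULK2, PIK3R4, ATG10 and GABARAPL1. All 3 OXA libraries lay above all 3 NT libraries for 9 of the 38 genes and below them for 5, beside 28.9% of all genes in either direction (14.5% above and 14.4% below). Leaving out 1 library at a time left between 1 and 5 genes called higher and 0 or 1 lower. Without NT 1, the number was 5 higher and 1 lower, beside 8.60% of all genes. Without OXA 1 or OXA 3, TP53INP1 was called alone, beside 0.611% and 1.22% of all genes. With the GC and length trends removed, 8 were called higher and 3 lower, beside 21.7%, and 16 and 5 with the block as well, beside 44.8%.

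Of the 4 genes called higher, TP53INP1 was called under each other choice tried and the other 3 were not. TP53INP1 and DRAM1 were called with each other scaling, with no filter, with a filter of at least 1 CPM (counts scaled to the library total) in 3 libraries, and by limma-voom. ATG12 was called with RLE size factors (4.95% of all genes called), upper-quartile scaling (6.13%), no filter (3.50%) and the CPM filter (6.78%). It was also called with limma-voom (4.84%) and a required fold change over 1.5 (3.41%), but not with the factors in the deposited normalized values (3.21%). DRAM1 and ATG12 were both called by DESeq2 (9.26%) and with bias-adjusted deviances (5.17%). Both were called with the replicate block (23.0%) and with the GC and length trends removed (21.7%). BECN1 was called with the CPM filter, by DESeq2 and with bias-adjusted deviances (5.17%). It was also called with the replicate block (23.0%) and with the GC and length trends removed (21.7%). It was not called with RLE size factors, upper-quartile scaling, the factors in the deposited values, no filter or limma-voom. ULK2 was called lower with upper-quartile scaling, the factors in the deposited values, the CPM filter and DESeq2. It was also called lower with the replicate block and with the GC and length trends removed. Without NT 2, NT 3 or OXA 2, TP53INP1 and DRAM1 were the genes called, beside 2.16%, 1.33% and 0.908% of all genes. Against a fold change of 1.5, TP53INP1 alone passed, beside 0.364%.

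**Figure D2:**
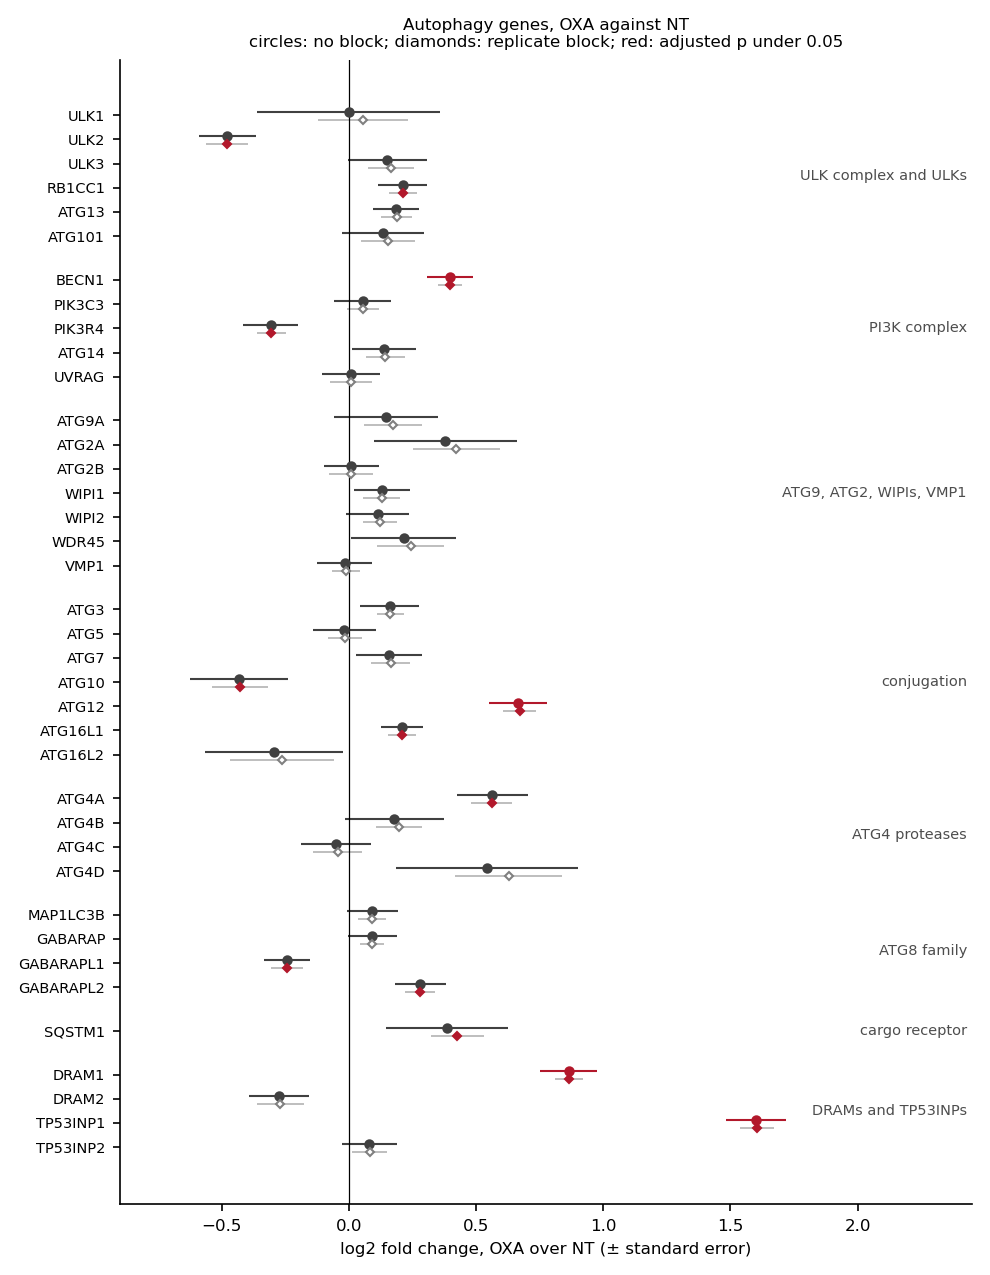
Log2 fold change of OXA over NT (horizontal axis) with its standard error for the 38 tested autophagy genes, grouped by role, with marks for genes called with and without the replicate block. TP53INP1 (1.60) and DRAM1 (0.87) lie farthest to the right and ULK2 (-0.48) farthest to the left.

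The largest changes were in the DRAM and TP53INP genes, of which 2 of 4 rose and the other 2 did not pass. TP53INP1, a stress-induced nuclear protein that also binds LC3, lies at chr8:94925972-94949378 (minus strand) of GRCh38. Its normalized counts, which are counts scaled to a common library size by TMM, were 1001, 863 and 1102 in NT libraries 1 to 3 and 3166, 2767 and 3069 in OXA libraries 1 to 3. Every OXA library was well above every NT library. The mean rose from 989 ± 120.4 to 3001 ± 208 (SD, n = 3), a 3.04-fold difference (log2 fold change 1.60, SE 0.12, adjusted p = 0.00167 by edgeR). It was the only autophagy gene called in all 6 fits that left out a library. The overlapping gene NDUFAF6 had a log2 fold change of -0.0044 (adjusted p = 0.991).

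DRAM1, a lysosomal membrane protein that promotes autophagy downstream of p53, lies at chr12:101877580-102012130 (plus strand). Its normalized counts were 1288, 1116 and 1316 in NT libraries 1 to 3 and 2328, 2037 and 2411 in OXA libraries 1 to 3, and the groups did not overlap. The mean rose from 1240.0 ± 108 to 2259 ± 197 (SD, n = 3; log2 fold change 0.87, SE 0.11, adjusted p = 0.00845 by edgeR). The call was lost without OXA 1 or without OXA 3, where the adjusted p reached 0.0616.

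Because DRAM1 is a known p53 target that rose here, the bases before its start are shown (RefSeq, GRCh38.p14, chr12:101877330-101877579, plus strand). There are no capitals, since none of the motifs searched for had an exact match.
DRAM1 promoter: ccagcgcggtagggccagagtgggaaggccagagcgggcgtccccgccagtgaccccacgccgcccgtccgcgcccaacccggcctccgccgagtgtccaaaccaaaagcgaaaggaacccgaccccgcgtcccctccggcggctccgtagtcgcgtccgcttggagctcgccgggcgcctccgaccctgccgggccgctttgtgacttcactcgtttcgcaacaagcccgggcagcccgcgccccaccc

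The paralogs of both genes gave other values. DRAM2, a related lysosomal membrane protein, had normalized counts of 842, 681 and 739 in NT libraries 1 to 3 and 619, 638 and 615 in OXA libraries 1 to 3, every OXA library lying below every NT library, but did not pass (log2 fold change -0.27, SE 0.12, adjusted p = 0.226 by edgeR). DRAM2 was called lower only with both the replicate block and the GC and length trends removed. TP53INP2, which binds LC3 and GABARAP proteins, had a log2 fold change of 0.082 (SE 0.11). Whether the paralogs differed in their response was not tested.

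**Figure D3:**
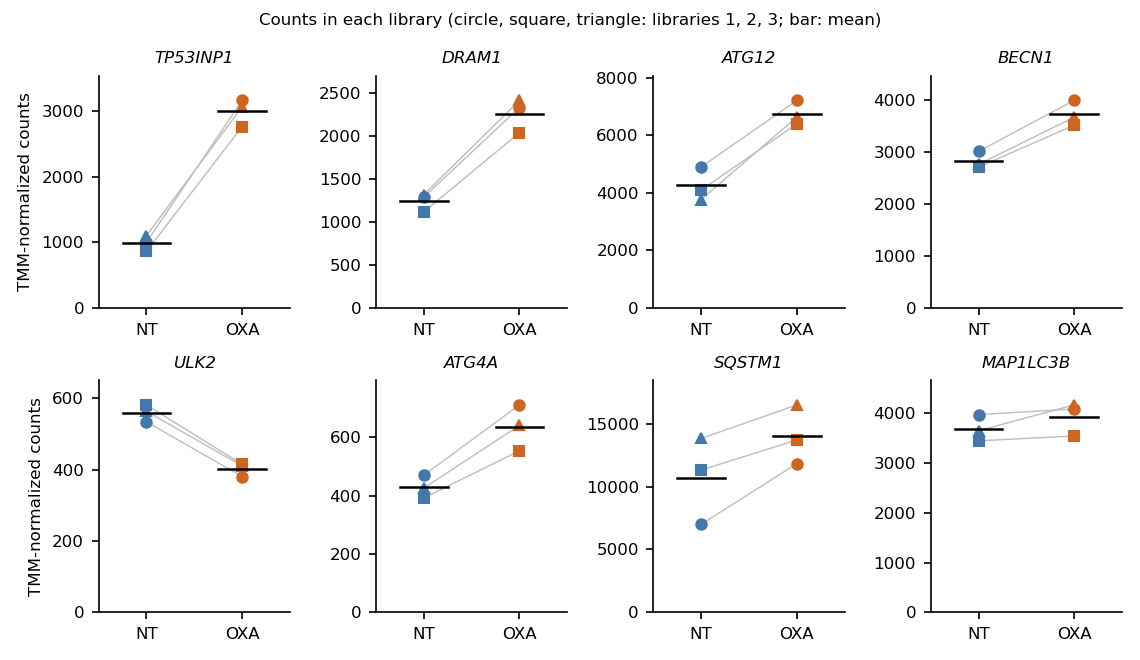
TMM-normalized counts per library (vertical axes) in NT and OXA for TP53INP1, DRAM1, ATG12, BECN1, ULK2, ATG4A, SQSTM1 and MAP1LC3B, with 1 point per library and the group mean. For TP53INP1 the NT points sit between 863 and 1102 and the OXA points between 2767 and 3166.

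In the conjugation machinery, ATG12 rose and the other 6 genes did not pass. ATG12 is the ubiquitin-like protein that is joined to ATG5 to form the enzyme for LC3 lipidation, and its gene lies at chr5:115828200-115841837 (minus strand). Normalized counts were 4903, 4099.8 and 3769.9 in NT libraries 1 to 3 and 7217, 6400.1 and 6639.7 in OXA libraries 1 to 3. Every OXA library exceeded every NT library. The mean rose from 4257 ± 583 to 6752 ± 419.7 (SD, n = 3; log2 fold change 0.67, SE 0.12, adjusted p = 0.0220 by edgeR). The call was kept in 1 of the 6 fits that left out a library, that without NT 1, and the adjusted p reached 0.116 in the others.

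ATG12 shares its start region with AP3S1, a subunit of the AP-3 adaptor, which is read from the other strand with its start 370 bases away. AP3S1, chosen after its values were seen, was also higher, from 7407 ± 1076 to 10975 ± 961 normalized counts (SD, n = 3; log2 fold change 0.57, SE 0.12, adjusted p = 0.0451 by edgeR). The strand setting of the counting was not given in the sources used here. The bases before the ATG12 start are shown for this overlap (RefSeq, GRCh38.p14, chr5:115841566-115841815, minus strand). Capitals mark the 131 bases that also fall in the AP3S1 window.
ATG12 promoter: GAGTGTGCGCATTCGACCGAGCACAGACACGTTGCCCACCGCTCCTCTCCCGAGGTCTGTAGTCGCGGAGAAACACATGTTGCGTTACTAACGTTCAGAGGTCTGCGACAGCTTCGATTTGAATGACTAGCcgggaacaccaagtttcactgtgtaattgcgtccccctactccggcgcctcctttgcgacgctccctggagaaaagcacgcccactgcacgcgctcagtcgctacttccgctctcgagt

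Of the other conjugation genes, ATG10 and ATG16L1 passed the test with the block and not without it. ATG10, the enzyme that transfers ATG12 to ATG5, had normalized counts of 302, 259.8 and 381 in NT libraries 1 to 3 and 246, 195 and 257 in OXA libraries 1 to 3. OXA libraries lay below those of NT (log2 fold change -0.43, SE 0.19, adjusted p = 0.244 by edgeR, and 0.0431 with the replicate block). ATG16L1, the scaffold that holds ATG12-ATG5 at the membrane, had normalized counts of 1773, 1716 and 1686 in NT libraries 1 to 3 and 2047, 1942 and 1991 in OXA libraries 1 to 3. Its groups did not overlap, with OXA higher (log2 fold change 0.21, SE 0.083, adjusted p = 0.199 by edgeR, and 0.0446 with the replicate block).

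ATG5, the partner of ATG12, had normalized counts of 2357, 1852 and 1989 in NT libraries 1 to 3 and 2155, 1804 and 2163 in OXA libraries 1 to 3, and the groups overlapped (log2 fold change -0.017, SE 0.12, adjusted p = 0.956 by edgeR). PRDM1, which overlaps ATG5 on the other strand and was chosen after its values were seen, had a log2 fold change of 1.43 (adjusted p = 0.0186 by edgeR). For ATG7, the activating enzyme of both conjugation systems, the values were 1006, 1018 and 1295 in NT libraries 1 to 3 and 1226, 1150.3 and 1328 in OXA libraries 1 to 3, again overlapping (log2 fold change 0.16, SE 0.13, adjusted p = 0.541). With the replicate block and the GC and length trends removed, ATG7 was called higher (adjusted p = 0.0242 by edgeR). ATG3, which transfers LC3 to lipid, had a log2 fold change of 0.16, and ATG16L2, a paralog of ATG16L1, -0.29, and neither passed with or without the block.

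None of the 6 genes of the initiation complex passed the edgeR test, and 1, ULK2, was lower at an unadjusted p under 0.05 and by DESeq2. With the replicate block, or with the GC and length trends removed, RB1CC1 was higher and ULK2 lower. ULK2, a kinase that can stand in for ULK1 and whose gene lies at chr17:19770829-19867936 (minus strand), had normalized counts of 535, 582 and 564 in NT libraries 1 to 3 and 381, 415 and 411 in OXA libraries 1 to 3. All OXA libraries were below all NT libraries, with means of 560.2 ± 23.9 and 402 ± 18.8 (SD, n = 3). The log2 fold change was -0.48 (SE 0.11, adjusted p = 0.0559 by edgeR, and 0.0145 with the replicate block). With the authors' factors as offset it was -0.98 (adjusted p = 0.0254). With the GC and length trends removed and no block it was -0.45 (adjusted p = 0.00686 by edgeR).

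ULK1, the main kinase of the complex, had normalized counts of 186, 509 and 379.6 in NT libraries 1 to 3 and 282, 481 and 312 in OXA libraries 1 to 3. NT 1 was lowest and NT 2 highest of the 6, so the spread within NT covered all of OXA (log2 fold change -0.00064, SE 0.36, adjusted p = 0.999 by edgeR). RB1CC1, the scaffold also called FIP200, had normalized counts of 2264, 2019 and 1968 in NT libraries 1 to 3 and 2574, 2269 and 2398 in OXA libraries 1 to 3. OXA was higher without overlap but did not pass in the fit as reported (log2 fold change 0.21, SE 0.10, adjusted p = 0.259 by edgeR, and 0.0433 with the replicate block). With the GC and length trends removed and no block, RB1CC1 passed (log2 fold change 0.30, adjusted p = 0.00897 by edgeR). ATG13, the adaptor between ULK1 and RB1CC1, had normalized counts of 2360.4, 2518 and 2748 in NT libraries 1 to 3 and 2921, 2804 and 2950.1 in OXA libraries 1 to 3, also with OXA above NT in every library, and did not pass with or without the block (log2 fold change 0.19, SE 0.090, adjusted p = 0.281 without the block). With the block and the GC and length trends removed, ATG13 was called higher (log2 fold change 0.15, adjusted p = 0.00835 by edgeR). ATG101, which stabilises ATG13, stood at 0.13 and the related kinase ULK3 at 0.15, neither passing.

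Among the 5 genes of the PI3-kinase complexes, BECN1 rose. BECN1, or Beclin 1, the regulatory subunit that binds VPS34, lies at chr17:42810134-42833350 (minus strand). Its normalized counts were 3005, 2702 and 2756 in NT libraries 1 to 3 and 3984, 3508 and 3660.2 in OXA libraries 1 to 3. OXA libraries were all above NT, and the mean rose from 2821 ± 162 to 3717 ± 243 (SD, n = 3; log2 fold change 0.40, SE 0.090, adjusted p = 0.0495 by edgeR). The call lay close to the threshold and was kept in 1 of the 6 fits that left out a library, that without NT 1 (adjusted p up to 0.214 in the others). With the GC and length trends removed, BECN1 was called at a log2 fold change of 0.39 (adjusted p = 0.00222 by edgeR). PSME3, which overlaps BECN1, had a log2 fold change of 0.087.

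PIK3R4, the VPS15 subunit that anchors VPS34, had normalized counts of 2952, 2381 and 2731 in NT libraries 1 to 3 and 2231, 2009 and 2278 in OXA libraries 1 to 3. OXA libraries lay below NT (log2 fold change -0.31, SE 0.11, adjusted p = 0.151 by edgeR, and 0.0195 with the replicate block). With the GC and length trends removed and no block, PIK3R4 was called lower (log2 fold change -0.25, adjusted p = 0.0286 by edgeR). PIK3C3, the VPS34 lipid kinase itself, stood at 0.054 on the log2 scale. ATG14, which directs the complex to autophagosome formation, stood at 0.14, and UVRAG, which takes its place in the endosomal complex, at 0.0090. None of these 3 passed with or without the block, though PIK3C3 and ATG14 were called with the block and the GC and length trends removed.

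No gene of the 7 that handle membrane supply passed the edgeR test, with or without the replicate block, none had an unadjusted p under 0.05 in the unblocked fit, and DESeq2 called none of them. Their log2 fold changes lay between -0.016 for VMP1, an ER membrane scramblase, and 0.38 for ATG2A, a lipid transfer protein. ATG2A illustrates the spread, with normalized counts of 227, 496 and 421 in NT libraries 1 to 3 and 436, 601 and 451 in OXA libraries 1 to 3 and its lowest value in NT 1. Leaving out 1 library moved ATG2A between 0.11, without NT 1, and 0.59, and it was called with the replicate block and the GC and length trends removed (log2 fold change 0.24, adjusted p = 0.0231). Its paralog ATG2B stood at 0.0098. ATG9A, the scramblase of the seed vesicles, stood at 0.15, and the PI3P-binding proteins WIPI1, WIPI2 and WDR45 at 0.13, 0.11 and 0.22.

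None of the 4 ATG4 proteases, which trim LC3 and GABARAP proteins before conjugation and free them from lipid afterwards, passed the edgeR test, and 1, ATG4A, was higher at an unadjusted p under 0.05 and by DESeq2. ATG4A, at chrX:108091668-108154671 (plus strand), had normalized counts of 470.2, 392 and 426 in NT libraries 1 to 3 and 711, 554 and 641 in OXA libraries 1 to 3. OXA exceeded NT in every library, with means of 429 ± 39.3 and 635 ± 78.6 (SD, n = 3). The log2 fold change was 0.56 (SE 0.14, adjusted p = 0.0622 by edgeR, and 0.00916 with the replicate block). ATG4D stood at 0.54 with an SE of 0.36, from normalized counts of 202, 585 and 506 in NT libraries 1 to 3 and 512, 768 and 606 in OXA libraries 1 to 3, where NT 1 was far below the rest. Leaving out 1 library moved ATG4D between 0.20, without NT 1, and 0.80, and with the GC and length trends removed it stood at 0.37 and was called (adjusted p = 0.0420, and 0.00548 with the replicate block as well). KRI1, which overlaps ATG4D on the other strand and was chosen after its values were seen, had a log2 fold change of 0.64 (adjusted p = 0.0788 by edgeR, and 0.00609 with the replicate block). ATG4B and ATG4C stood at 0.18 and -0.050.

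The LC3 and GABARAP proteins are the ubiquitin-like tags placed on the autophagosome membrane. Of their 5 genes, 4 were tested and none passed the edgeR test, with 1 higher and 1 lower at an unadjusted p under 0.05 and none called by DESeq2. MAP1LC3A had 0 counts in all 6 libraries, and a count of 0 allows up to 3 counts, or 0.0732 to 0.0910 CPM depending on the library. MAP1LC3B, whose protein is the usual marker of autophagosomes, had normalized counts of 3976, 3449 and 3653 in NT libraries 1 to 3 and 4091, 3547 and 4172 in OXA libraries 1 to 3. The groups overlapped (log2 fold change 0.092, SE 0.10, adjusted p = 0.652 by edgeR). MAP1LC3B was called higher only with both the replicate block and the GC and length trends removed. Its near copy MAP1LC3B2 had between 13 and 41 raw counts, and reads shared between the copies could have been split in the counting, so the MAP1LC3B value is uncertain to that extent.

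GABARAPL1 and GABARAPL2 went in opposite directions, each passing with the replicate block and not in the fit as reported. With the GC and length trends removed, both were also called without the block, GABARAPL1 lower and GABARAPL2 higher. GABARAPL1 had normalized counts of 1528, 1403 and 1442 in NT libraries 1 to 3 and 1231, 1232 and 1233 in OXA libraries 1 to 3. OXA libraries were nearly equal and all below NT (log2 fold change -0.24, SE 0.089, adjusted p = 0.165 by edgeR, and 0.0439 with the replicate block). GABARAPL2 had normalized counts of 1903, 1649 and 1757 in NT libraries 1 to 3 and 2218, 1976 and 2257 in OXA libraries 1 to 3. Here OXA lay above NT (log2 fold change 0.28, SE 0.10, adjusted p = 0.155 by edgeR, and 0.0240 with the replicate block). GABARAP itself stood at 0.093.

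Seen as shares of the summed normalized counts of this family, per kilobase of transcript, GABARAPL1 took 9.02% ± 0.213 in NT and 7.09% ± 0.479 in OXA (SD, n = 3), and GABARAPL2 took 21.1% ± 0.141 and 23.8% ± 0.787. Neither pair of groups overlapped. GABARAP (49.8% ± 0.114 and 49.3% ± 1.59) and MAP1LC3B (20.01% ± 0.0945 and 19.8% ± 0.825) overlapped. Shares of a whole are not independent of each other, and no test was made of them.

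**Figure D4:**
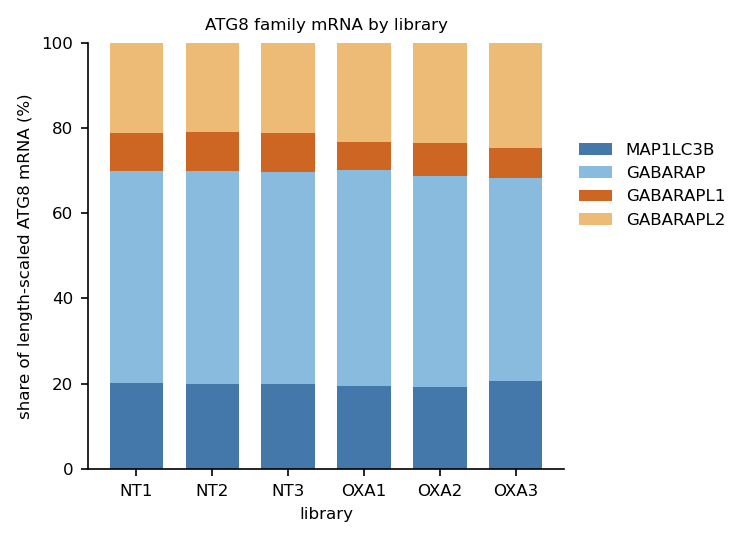
Stacked bars of the share of each LC3 and GABARAP gene in the family's length-scaled total, in percent (vertical axis), by library in NT and OXA. GABARAPL1 lies between 8.81% and 9.23% in NT and between 6.67% and 7.61% in OXA, and MAP1LC3A, at 0, is not drawn.

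The bases before the GABARAPL1 start are shown because it was the only window of an autophagy gene with a p53 decamer match (RefSeq, GRCh38.p14, chr12:10212627-10212876, plus strand). Capitals mark that decamer, which begins 234 bases before the start, and TGACGTCA, a CRE motif, which begins 30 bases before it.
GABARAPL1 promoter: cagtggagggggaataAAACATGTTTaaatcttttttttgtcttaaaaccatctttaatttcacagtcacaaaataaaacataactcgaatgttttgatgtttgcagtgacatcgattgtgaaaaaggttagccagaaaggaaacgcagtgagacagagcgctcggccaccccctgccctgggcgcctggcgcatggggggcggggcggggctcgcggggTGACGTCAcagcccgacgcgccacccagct

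SQSTM1, or p62, the receptor that carries ubiquitinated cargo to LC3 and is itself degraded by autophagy, lies at chr5:179806398-179838078 (plus strand). Its normalized counts were 6999, 11311 and 13816 in NT libraries 1 to 3 and 11815, 13695 and 16484 in OXA libraries 1 to 3. NT 1 was by far the lowest and the groups overlapped. Within each same-numbered pair OXA was higher, by 0.76, 0.28 and 0.25 on the log2 scale. Without the block it did not pass (log2 fold change 0.39, SE 0.24, adjusted p = 0.404 by edgeR), and with the replicate block it did (log2 fold change 0.43, adjusted p = 0.0379). With the GC and length trends removed, the log2 fold change was 0.30 both without the block (adjusted p = 0.210) and with it (adjusted p = 0.000518). Without NT 1, SQSTM1 stood at 0.16 (adjusted p = 0.546), and over the fits that left out 1 library it ranged from 0.16 to 0.59 and was called in none.

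Levels were compared between genes only as CPM per kilobase of the canonical transcript. In NT the highest were GABARAP (119 ± 8.12) and SQSTM1 (104.8 ± 33.7), followed by GABARAPL2 (50.5 ± 3.64) and MAP1LC3B (47.8 ± 3.43) (SD, n = 3). The lowest detected were ATG2B (1.13 ± 0.0329) and ATG16L2 (1.01 ± 0.330). Of the 37 pairs of neighbours in this order, 4 did not overlap between their NT libraries, namely SQSTM1 and GABARAPL2, BECN1 and ATG12, ATG12 and GABARAPL1, and PIK3C3 and UVRAG. The other neighbours did not differ beyond their spread.

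In OXA, TP53INP1 moved from rank 30 to rank 17 in this order, with its level going from 4.90 ± 0.597 to 14.9 ± 1.03 (SD, n = 3). DRAM1 moved from rank 18 to rank 11, from 10.5 ± 0.917 to 19.1 ± 1.67. These are ranks of means, and the overlap of neighbours was not examined in OXA. Per kilobase of coding sequence the NT order changed for genes with long untranslated ends, ATG12 going from rank 8 to rank 2 and TP53INP1 from rank 30 to rank 15.

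**Figure D5:**
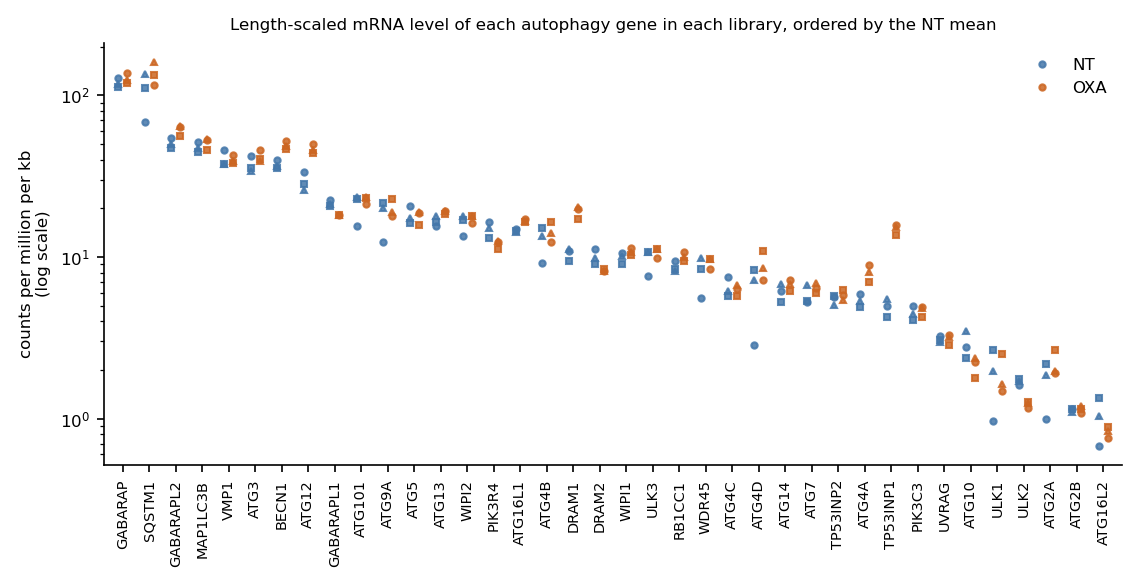
Length-scaled levels of the autophagy genes in CPM per kilobase of transcript (log axis) in each NT and OXA library, ordered by the NT mean. GABARAP (119) leads in NT, and the ranks of the means of TP53INP1 (30 to 17) and DRAM1 (18 to 11) move up in OXA.

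Other genes of the pathway, 87 in 4 lists, gave 5 higher and 0 lower by edgeR, beside the 5.07% of all genes called. At an unadjusted p under 0.05, 16 were higher and 3 lower, beside 21.7% of all genes, and DESeq2 called 8 higher and 1 lower, beside 9.26%. Their median log2 fold change was 0.12. Of 17 cargo receptors, the mitophagy receptor BNIP3 rose (log2 fold change 0.59, SE 0.10, adjusted p = 0.0223 by edgeR). Of 23 genes of fusion and other machinery, the SNARE protein VAMP8 rose (log2 fold change 0.49, SE 0.10, adjusted p = 0.0374), a call lost with the GC and length trends removed (log2 fold change 0.30, adjusted p = 0.0889). Of 32 lysosomal genes, the glycosidases FUCA1 (log2 fold change 0.53, SE 0.11, adjusted p = 0.0429) and NEU1 (log2 fold change 0.53, SE 0.12, adjusted p = 0.0451) rose. Of 15 genes of the AMPK and mTORC1 pathways, PRKAB1, a regulatory subunit of AMPK, rose (log2 fold change 0.78, SE 0.13, adjusted p = 0.0217). Of the 6 fits that left out a library, BNIP3 and PRKAB1 kept their call in 2. VAMP8, FUCA1 and NEU1 kept theirs in 1. With the replicate block, 20 of the 87 were called higher and 6 lower, beside 23.0% of all genes.

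Promoter windows of 300 bases, from 250 before to 50 after the start, were available for 34 of the 39 autophagy genes among 35116 windows. RB1CC1, UVRAG, ATG4D, MAP1LC3A and TP53INP1 were not among them. Both strands were searched. The percentages count windows, while the autophagy genes are counted as genes, some with several windows, and a match in any window counted. The p53 decamer was in 6.63% of all windows and in that of GABARAPL1. The full p53 site was searched only as a pair of exact decamers with a gap of 0 or 1 base. In that form it was in 0.0199% of all windows and in none of the 34 genes. Longer gaps and mismatches were not searched for. CACGTG, the E-box bound by TFEB among other factors, was in 7.26% of all windows and in those of ATG14, ATG3 and ULK3, while the longer CLEAR motif that contains it was in 0.353% and in none of the 34. TGACGTCA was in 1.85% of all windows and in those of GABARAPL1 and TP53INP2, and TGANTCA, the AP-1 motif, was in 7.71% and in that of WDR45. A match is a description of the letters and not a binding site.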

How the data were processed

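Poly(A) RNA of HCT116 cells was sequenced from 3 NT and 3 OXA libraries, made with a stranded kit. Per the labels, the submitters' processing notes name Trimmomatic 0.32, STAR 2.7.5b, RSEM 1.3.3 and DESeq2 2.13 with GRCh38, without their roles, and the strand setting was not given in the sources used here. The authors deposited raw counts per gene and library, whole numbers that may be rounded estimates, and a normalized signal, the count times a factor specific to the gene and the library. The counts were used as deposited, and the deposited signal entered alternatives only. Totals were 32979521 to 40967880 counts, and intervals and floors cover counting error only.

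Genes were filtered with filterByExpr (minimum count 10, minimum total 15), leaving 13727 of 27942. TMM scaling and the quasi-likelihood test of edgeR 4.0.16 were applied (limma 3.58.1, R 4.3.3). P-values were adjusted by Benjamini-Hochberg over the tested genes, with calls at an adjusted p under 0.05. The SE was the log2 fold change divided by the square root of F. The procedure was tested on simulated data. Groups and replicate numbers came from the labels. Deviations from the group means correlated at 0.48, 0.47 and 0.26 for libraries of the same number and at -0.41 to 0.078 for others, so the pairing was taken from the data and the fit with the replicate block was printed where it changed a call.

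Members and lists were chosen with earlier results of these data known. Values in every library were given for members called in either fit or not overlapping, and for MAP1LC3B, SQSTM1, ULK1, BECN1, ATG5 and ATG7, other members by log2 fold change, with ATG2A and ATG4D added after their values were seen, and of the other lists the genes called, at most 5 each. Alternatives were other scalings, filters, DESeq2 1.42.0, limma-voom, fold thresholds, the block and leaving out each library. Bias-adjusted deviances and the removal of GC and length trends (loess, span 0.5, genes with a mean normalized count over 50, pseudocount 0.5), with and without the block, were chosen after seeing the data. Transcript lengths, positions and GC content came from GENCODE release 44 and promoters from RefSeq GRCh38.p14.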

Additional observations from a re-analysis of the deposited data

How the results depend on the processing

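TP53INP1 was called higher under each of the alternatives run. The number of autophagy genes called higher, 4 as reported, was 2 with the authors' factors as offset, 1 in the test against a 1.5-fold change, 9 with the replicate block, 8 with the GC and length trends removed and 16 with both. The number called lower, 0 as reported, was 1 with upper-quartile scaling, the authors' factors, the filter of at least 1 CPM in 3 libraries or DESeq2, 4 with the block, 3 with the trends removed and 5 with both. BECN1 lost its call with RLE size factors, upper-quartile scaling, the authors' factors, no filter and limma-voom, and kept it with the block and with the trends removed. Of the other pathway genes, 5 higher as reported, the number was 1 with the authors' factors, 3 with no filter on low counts, 8 with DESeq2, 0 in the test against 1.5-fold, 2 with a fold change over 1.5 required, 20 with the block, 18 with the trends removed and 34 with both. The number lower, 0 as reported, was 1 with upper-quartile scaling, the CPM filter or DESeq2, and 6, 3 and 12 with the block, the trends removed and both. Over all genes, 381 higher and 315 lower became 241 and 200 with the authors' factors, 636 and 635 with DESeq2, 41 and 9 in the test against 1.5-fold, 1664 and 1493 with the block, 1456 and 1521 with the trends removed, and 3039 and 3109 with both. The number lower was 493 with upper-quartile scaling, 479 with the CPM filter and 198 with a fold change over 1.5 required. The cause was not tested. Leaving out 1 library gave 66 to 623 genes higher and 19 to 571 lower, 1 to 5 autophagy genes higher and 0 to 1 lower, and 0 to 8 other pathway genes higher.

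Sign changes were limited to genes that were not called in the fit as reported. PIK3C3, among them, was called with the block and the trends removed (0.14, adjusted p = 0.0195). ULK1 stood at 0.00071 with RLE factors, 0.034 with the authors' factors, 0.0014 with DESeq2, 0.070 with limma-voom and 0.056 with the block. UVRAG stood at -0.031 with upper-quartile scaling, -0.19 with the authors' factors, -0.020 with no filter and -0.020 with the CPM filter, and ATG2B at -0.029, -0.017 and -0.018 with upper-quartile scaling, no filter and the CPM filter. With the trends removed, without and with the block, ATG101 stood at -0.053 and -0.054, VMP1 at 0.055 and 0.055, ATG5 at 0.051 and 0.051, ATG4C at 0.029 and 0.028, and TP53INP2 at -0.020 and -0.0053. Leaving out 1 library, the log2 fold change ranged from -0.31 to 0.31 for ULK1, -0.031 to 0.21 for ATG101, -0.042 to 0.13 for PIK3C3, -0.054 to 0.066 for UVRAG, -0.061 to 0.26 for ATG9A, -0.056 to 0.047 for ATG2B. It ranged from -0.00048 to 0.17 for WIPI2, -0.10 to 0.088 for VMP1, -0.12 to 0.088 for ATG5, -0.0026 to 0.30 for ATG4B, -0.16 to 0.073 for ATG4C and -0.0068 to 0.11 for TP53INP2. With 3 libraries a group, the change in calls with 1 library removed limits what can be said of genes near the threshold, and without NT 1, ULK2 was called lower.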
